A study of Mus musculus with 617 samples.

Results

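In mouse epiblast stem cell (Epi) cultures, most cells have shut off Zfp42 (Rex1), a gene of the naive pluripotent state. The cells described here had not: they are the Epi cells in which Zfp42 was listed at 1 FPKM or more (an expression level scaled to transcript length and to the mapped fragments of the cell). The cells were thus chosen by their Zfp42 level. The main table holds 447 of the 617 cells of the series, 79 of them female Epi and 63 male Epi cells, and the rule gave 78. All 78 came from the female Epi culture, where they were all but 1 cell, and no male Epi cell met the rule. Within the 78 cells, those with Fgf5 at 1 FPKM or more (40 cells) were set against those below 1 FPKM (38 cells).

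The embryonic stem (ES) lines behind these cultures were 1 female and 1 male line, each from a cross of a C57BL/6J female with a CAST/EiJ male. Both lines were grown in serum with LIF (68 female and 52 male cells) or in 2i with LIF, the inhibitor medium of ground-state culture (60 female and 51 male cells). Epi cells were made from each line with Activin A and FGF2, and a further female Epi line was kept for 7 passages (41 cells). Embryo cells were E3.5 inner cell mass (23) and E4.5 epiblast (23) of the same cross, and E5.5 epiblast of 20 female and 63 male cells from C57BL/6J parents on both sides. Single cells were picked into lysis buffer and sequenced with SMART-seq2, a full-length cDNA method. Each group of cultured cells was taken as 1 culture, cells are not replicates of a condition, and no p-value is given. The Zfp42-keeping cells share line and sex with the female serum ES cells. Against male cells sex, line and culture cannot be told apart, and both sides of the Fgf5 split come from the same female Epi group.

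Pluripotency passes through stages that are told apart by marker genes. Naive cells, like the preimplantation epiblast, express Zfp42, Esrrb, Klf2, Klf4 and Tcl1. After implantation the epiblast turns these genes off and turns on Fgf5, Otx2, Pou3f1 and Dnmt3b, a state called formative, before it becomes primed for the germ layers and starts to express primitive streak genes such as T and Mixl1. Pou5f1 (Oct4) is shared by all of these stages. Activin A and FGF2 hold cells at the primed end, where Zfp42 is normally silent.

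The marker genes given for these cells were high in nearly all of them. Zfp42, a zinc-finger protein of naive cells, ranged from 1.91 to 360 FPKM with a median of 29.2. Dppa5a, an RNA-binding protein of early embryos and germ cells, ranged from 22.2 to 8227 FPKM with a median of 3582. Dnmt3l, a partner of the de novo DNA methyltransferases, had a median of 200 FPKM and was at 1 FPKM or more in 76 of the 78 cells. Pou5f1 had a median of 1098 FPKM and a lowest value of 11.1. In male Epi cells the medians of Zfp42 and Dnmt3l were 0 and that of Dppa5a was 1.35 FPKM, whereas Pou5f1 was still expressed at a median of 219 FPKM. Dppa5a has near-identical copies in the genome, so its level is less certain than the others. These values chose or describe the cells and were not tested.

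The rule cut through an empty stretch of values. The 4 lowest Zfp42 values inside it were 1.91, 2.31, 2.78 and 3.63 FPKM. The female Epi cell outside it had Zfp42 listed at 0 and Fgf5 at 148.9 FPKM, and the highest male Epi cells had Zfp42 at 0.863, 0.739 and 0.692 FPKM. For Fgf5, the highest values below the split were 0.573 and 0.687 FPKM, the lowest above it were 1.49 and 1.54, the highest was 84.5, and 19 cells were listed at 0.

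The sequence before 3 gene starts is shown because these genes defined the cells or had the highest ratio inside them. Zfp42 lies on chr8:43295063-43306980 (minus strand), Fgf5 on chr5:98254184-98277030 (plus strand) and Pim2 on chrX:7878262-7883432 (plus strand), all protein-coding genes in GRCm38 (GENCODE vM21). Each window is the 250 bases before the RefSeq start in GRCm38.p6, 5′ to 3′ on the gene's strand: chr8:43307010-43307259 for Zfp42, chr5:98253934-98254183 for Fgf5 and chrX:7878056-7878305 for Pim2, whose last bases lie inside the gene as GENCODE draws it. Capitals mark the octamer ATGCAAAT or its reverse complement ATTTGCAT, the sequence bound by POU-domain factors such as Oct4.
Zfp42: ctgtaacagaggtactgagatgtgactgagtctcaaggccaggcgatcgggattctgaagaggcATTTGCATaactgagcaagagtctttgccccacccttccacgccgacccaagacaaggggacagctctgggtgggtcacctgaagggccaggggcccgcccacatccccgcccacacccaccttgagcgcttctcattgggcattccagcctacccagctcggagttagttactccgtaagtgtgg
Fgf5: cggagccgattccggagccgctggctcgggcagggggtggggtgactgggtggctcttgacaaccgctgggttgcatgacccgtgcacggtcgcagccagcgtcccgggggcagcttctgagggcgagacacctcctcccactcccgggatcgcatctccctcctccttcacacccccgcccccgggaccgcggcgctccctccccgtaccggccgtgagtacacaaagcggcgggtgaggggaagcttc
Pim2: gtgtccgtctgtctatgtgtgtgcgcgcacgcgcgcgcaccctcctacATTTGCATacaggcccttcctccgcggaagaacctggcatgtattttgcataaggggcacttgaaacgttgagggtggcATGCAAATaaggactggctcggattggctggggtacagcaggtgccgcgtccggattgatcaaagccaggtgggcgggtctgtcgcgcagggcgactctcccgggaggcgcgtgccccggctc

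The octamer was at −186 to −179 from the Zfp42 start, and at −202 to −195 and −123 to −116 from the Pim2 start. It occurs in 1.6% of 32851 such mouse windows. The Zfp42 window also held CCACACCC, a CACCC box of the kind bound by Klf factors, at −75 to −68 (3.2% of windows). Also searched on both strands were TCAAGGTCA, the extended single site bound by Esrrb (0.387% of windows), and GGATTA, the core bound by Otx2 (6.25%). The Fgf5 window held none of the 4, which says only that these letters are not in that window. Among 11 naive-list genes with a window, 1 held an octamer (Zfp42), and among 12 formative-list genes 1 did (Sfrp2). These matches are descriptions, and the motifs were chosen with results and sequences known.

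Depth is unknown for FPKM values, but cells detected similar numbers of genes (1 FPKM or more) on both sides of the split, with medians of 10381.5 genes (range 8573 to 11667) with Fgf5 and 10453 genes (8593 to 12117) without. The FPKM sum of a cell had medians of 810205 with Fgf5 and 823486 without, but reached 1.76e+06 and 1.47e+06. The cells with these highest sums correlated less with the serum ES profile (0.58 and 0.54) than the median cell (0.78). They are not among the 4 cells set apart below and stay in all means. No 2 cells of the table had identical values. The cells carry 2 separate runs of title numbers, here the lower run (33 cells) and the higher run (45 cells), and the labels do not say what separates them. In serum ES cells, RNAs that overlap ribosomal RNA differed from both Epi cultures: Gm42418 averaged 1800 FPKM in the Zfp42-keeping cells, 1723 in male Epi and 51124 in female serum ES cells. Cell cycle genes were alike in cells with and without Fgf5, where none of the 12 G1-S and 12 G2-M genes was 2-fold apart.

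Of the 78 cells, 4 were set apart because their overall profile was closer to male Epi than to serum ES cells (below). Results that rest on them are given with and without them. The cut fell in a continuous range. The male Epi correlation minus the serum correlation was 0.0509 and 0.0374 in the first 2 and 0.0083 and 0.0020 in the others. The next cells of the 78 were at −0.0087 and −0.0096. All 4 had Fgf5 at 1 FPKM or more and Zfp42 below 10 FPKM. The first, of the lower run, carried primitive streak genes at levels found in male Epi cells, with Fgf8 at 208, Lhx1 at 172.1, Eomes at 61.2 and Mixl1 at 45.02 FPKM, beside Pou5f1 at 90.9 and Sox2 at 0.819 FPKM. It resembled in this the 1 female Epi cell outside the rule, which had Lhx1 at 251.6 and Mixl1 at 148.1 FPKM and Pou5f1 at 0.501. The second, of the higher run, had Pou5f1 at 11.1 FPKM, Otx2 at 0, and high epithelial and mesenchymal genes, with Krt19 at 1115, Krt8 at 674, Vim at 2584 and Col1a2 at 286.5 FPKM. The 2 others, also of the higher run, kept Pou5f1 at 1131 and 1467 FPKM, with Dnmt3b at 313.2 and 393 and Fgf5 at 63.5 and 66.97 FPKM. These cells had Dppa5a at 211 and 393 FPKM, below every cell without Fgf5.

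Fgf5, the growth factor that marks postimplantation epiblast, was at 1 FPKM or more in 40 of the 78 cells, or 51.3% (95% exact Clopper-Pearson interval 39.7% to 62.8%, counting error over cells only). The share was 57.6% in the lower run (19 of 33) and 46.7% in the higher run (21 of 45), and 48.6% without the 4 cells. In male Epi cells it was 96.8% (61 of 63) and in the 7-passage female line 92.7% (38 of 41). In serum it was 13.2% of female cells (9 of 68) and 11.5% of male cells (6 of 52), and in 2i 1 of 60 female and none of 51 male cells reached the threshold. The share of the Zfp42-keeping cells thus lay between those of the serum ES and the other Epi cultures.

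Fgf5 was detected most often where Zfp42 was low. With Zfp42 from 1 to 10 FPKM, 11 of 12 cells had Fgf5 at 1 FPKM or more, with Zfp42 from 10 to 100 FPKM it was 21 of 43 (48.8%), and at 100 FPKM or more 8 of 23 (34.8%, interval 16.4% to 57.3%). The 8 cells show that high Zfp42 and detected Fgf5 occurred in the same cell, but at low Fgf5 levels, from 1.54 to 8.72 FPKM. The highest Fgf5 of the 78 cells, 84.5 FPKM, was in a cell with Zfp42 at 16.7 FPKM. Across the 78 cells the Spearman correlation of the levels was −0.53, and it was −0.66 and −0.48 in the lower and higher runs. The cells share a culture and an unknown depth, and neither gene followed the number of genes detected (−0.04 and −0.03).

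**Figure D1:**
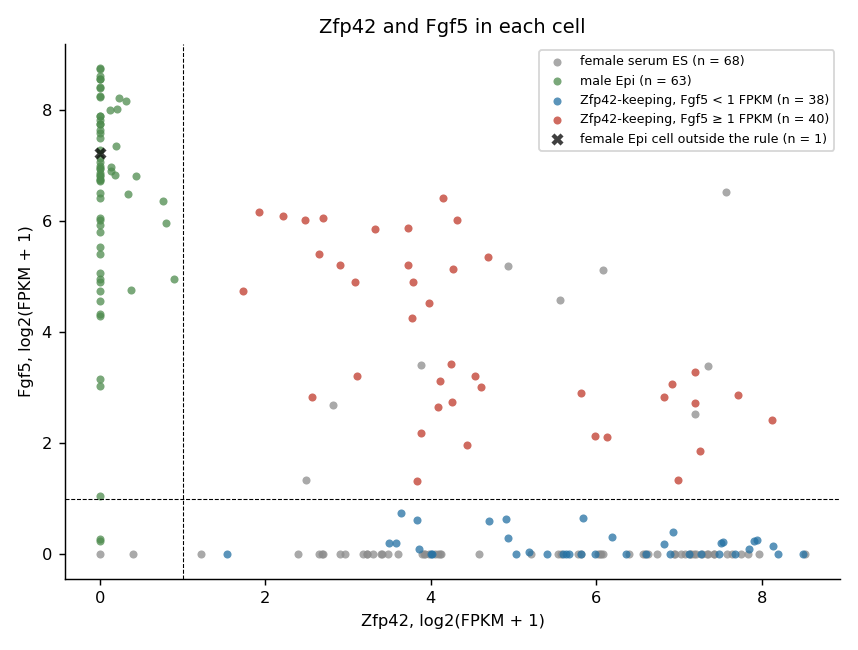
Zfp42 (x axis) and Fgf5 (y axis) in each cell, log2(FPKM + 1), for the Zfp42-keeping Epi cells on both sides of the Fgf5 split, female serum ES and male Epi cells and the female Epi cell outside the rule; dashed lines mark 1 FPKM. The 40 cells with Fgf5 fill the upper right, where 9 of the 68 female serum cells and no male Epi cell lie.

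For the comparison inside the cells, each gene's mean FPKM over the 40 cells with Fgf5 was compared with that over the 38 cells without, as the log2 ratio of (mean + 1). Genes that averaged 1 FPKM or more over both sides were used, and a gene counted as 2-fold apart at a log2 ratio of 1 or more in size. Of 14139 genes, 808 (5.71%) were 2-fold higher with Fgf5 and 822 (5.81%) 2-fold lower, 11.5% in either direction, with a median log2 ratio of 0.02. Without the 4 cells it was 10.8% of 14035 genes (4.86% higher and 5.91% lower), and without short and ribosomal RNA genes 6.1%. Within the lower run 7.09% were 2-fold higher and 7.11% lower, and within the higher run 8.04% and 6.63%. A split of the same 78 cells by run of title numbers put 10.7% of genes 2-fold apart, close to the 11.5% of the Fgf5 split. The gene groups below are read against 5.71% and 5.81%, with the list medians of the lower and higher runs beside them.

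Naive pluripotency genes were lower in the cells with Fgf5. Zfp42 aside, 14 of 15 had a lower mean and 7 were 2-fold lower (Klf2, Klf4, Esrrb, Tbx3, Prdm14, Tcl1 and Fbxo15), none was 2-fold higher, and the median log2 ratio was −0.99. It was −0.94 without the 4 cells, and −1.01 and −0.89 within the lower and higher runs. These genes were chosen with earlier results of these data known, and Fgf5 itself made the split.

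Esrrb, an orphan nuclear receptor of the naive network, had a lowest value of 0, a median of 2.17 and a highest of 61.1 FPKM with Fgf5, against 0, 29.1 and 78.2 without. Its means were 10.6 and 30.1 FPKM, a log2 ratio of −1.42. Tcl1, a co-activator of Akt kinase that supports self-renewal, had medians of 0.342 and 59.7 FPKM with highest values of 387 and 824, means of 30.1 and 115.9, and a log2 ratio of −1.91. For both genes the sides overlapped, although the highest values were in cells without Fgf5, and many cells with Fgf5 were at or near 0. Klf2, a Krüppel-like factor, had medians of 4.03 and 21.9 FPKM and a log2 ratio of −1.19. Klf4, a LIF target, was at 1 FPKM or more in 12 of 40 cells with Fgf5 and 21 of 38 without, with means of 1.08 and 8.24 FPKM. Fbxo15, an F-box protein known as an Oct4 target, had medians of 8.81 and 51.8 FPKM. Tfcp2l1, another LIF target, was alike at means of 5.24 and 5.44 FPKM, and Gbx2 was the 1 gene of the list with a higher mean, 25.4 against 20.004 FPKM, with log2 ratios of 1.41 in the lower run and −0.02 in the higher run. Dppa3, a germline and oocyte factor, had a log2 ratio of −2.08 in the lower run and −0.07 in the higher run, so its difference came from 1 run.

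Genes of the Dppa and oocyte-to-embryo group were lower with Fgf5 as well. All 8 had a lower mean with Fgf5, 2 of them 2-fold (1 without the 4 cells), and the median log2 ratio was −0.87 (−0.67 and −0.64 in the runs, with 1 of 8 higher in each). Dppa5a had a lowest value of 22.2, a median of 2312 and a highest of 7529 FPKM with Fgf5, and 1895, 4468 and 8227 without. Every cell without Fgf5 thus held Dppa5a at 1895 FPKM or more, and the low cells were all on the other side. Ooep, a maternal-effect protein of the oocyte, had medians of 54.3 and 165.2 FPKM and a log2 ratio of −1.23 (−1.09 without the 4 cells). Tex19.1, a germline gene that restrains retrotransposons, was at 86.97 and 88.8 FPKM.

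The shared pluripotency factors did not move as one, and the list of 8 had a median log2 ratio of −0.17 (0.08 and −0.30 in the runs). Pou5f1 had means of 1153 and 1108 FPKM with and without Fgf5, and Sall4, a zinc-finger partner of Oct4, 75.4 and 81.3. Sox2, Oct4's DNA-binding partner, had a lowest value of 0, a median of 10.53 and a highest of 57.8 FPKM with Fgf5, against 8.33, 29.1 and 143.1 without, a log2 ratio of −1.39. No cell without Fgf5 fell below 8.33 FPKM of Sox2, while 6 of 40 cells with Fgf5 were below 1 FPKM. Nanog, the homeodomain factor of the naive network, had medians of 39.3 and 71.9 FPKM and a log2 ratio of −1.07 (−1.37 and −0.84 in the 2 runs). Lin28a, an RNA-binding protein that blocks let-7 and is known to increase as cells leave the naive state, was at 20.5 and 12.5 FPKM.

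Formative genes were higher on average in the cells with Fgf5. Of the 21 on the list, 19 passed the filter, and of the 18 other than Fgf5 itself 7 were 2-fold higher (Otx2, Pou3f1, Sox4, Fgf8, Fgf15, Sall2 and Dnmt3b) and none 2-fold lower. The median log2 ratio was 0.76, 0.74 without the 4 cells (6 genes 2-fold higher), and 1.26 and 0.71 in the lower and higher runs. Otx2, the homeobox gene that redirects Oct4 to formative enhancers, had a lowest value of 0, a median of 34.9 and a highest of 134.1 FPKM with Fgf5, and 0, 4.02 and 120 without. It was at 1 FPKM or more in 34 of 40 and 22 of 38 cells. Dnmt3b, a de novo DNA methyltransferase, had a lowest value of 1.37, a median of 149.4 and a highest of 393 FPKM with Fgf5, and 3.93, 43.3 and 215 without, a log2 ratio of 1.36. Pou3f1 (Oct6), a POU factor of the formative epiblast, was at 1 FPKM or more in 31 of 40 cells and 9 of 38, with medians of 2.96 and 0.295 FPKM. Fgf15, a secreted FGF, had medians of 15.7 and 0.342 FPKM, and Sall2 of 2.60 and 0.236.

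Not every formative gene followed. Lef1, a Wnt effector, was at 1 FPKM or more in all 40 cells with Fgf5 and 27 of 38 without, with means of 63.8 and 38.4 FPKM and a log2 ratio of 0.72. Etv4, an ERK target, was at 23.5 and 28.3 FPKM. Dnmt3a, the other de novo methyltransferase, had a log2 ratio of 1.39 in the lower run and −0.24 in the higher run. Among the 10 genes of DNA methylation, Dnmt3b was 2-fold higher and Zfp57, a protector of imprints, 2-fold lower (78.5 against 162.6 FPKM, −0.99 without the 4 cells), and the list median was −0.20 (−0.08 and −0.30 in the runs).

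**Figure D2:**
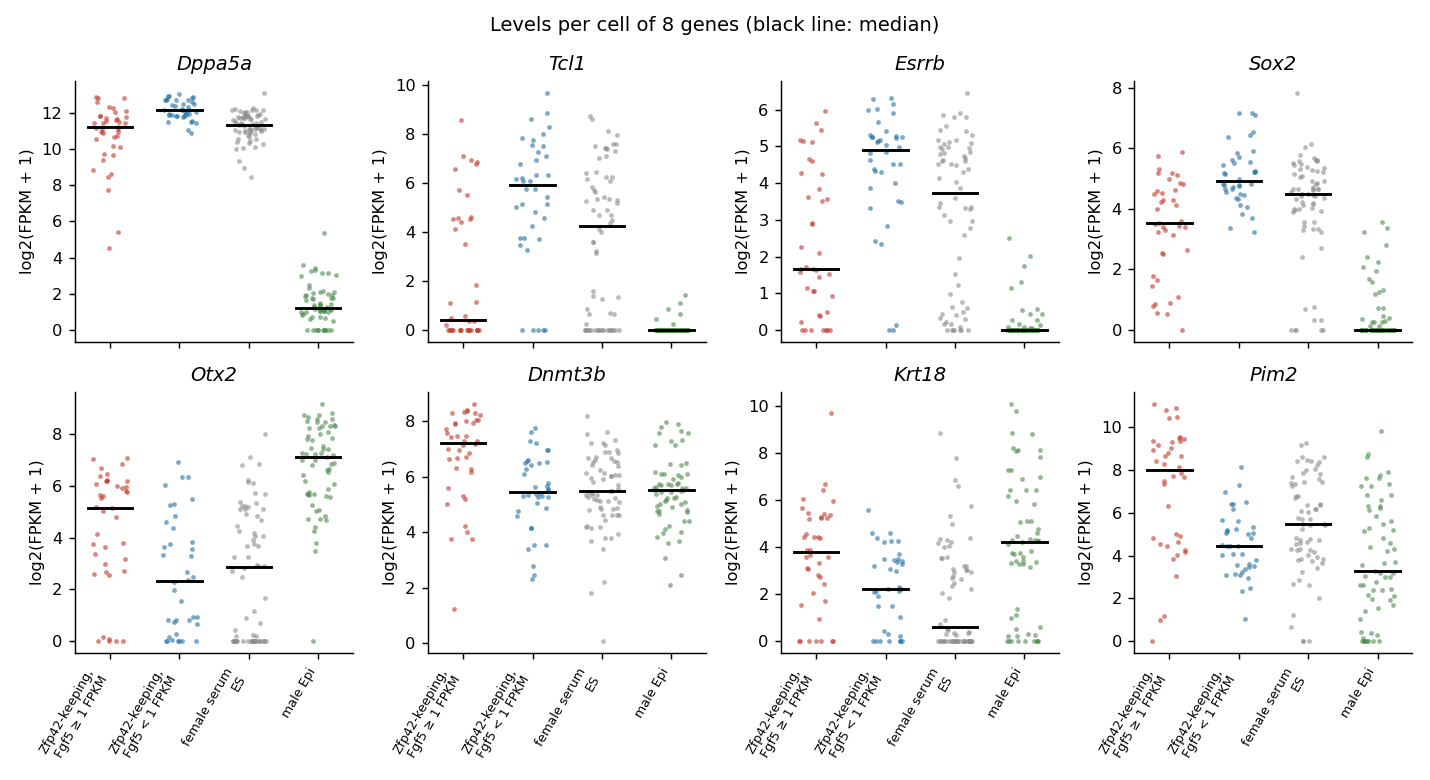
Levels in each cell, log2(FPKM + 1), of 8 genes in the Zfp42-keeping cells with and without Fgf5, female serum ES and male Epi cells; black lines are medians. Dppa5a, Tcl1, Esrrb and Sox2 are lower and Otx2, Dnmt3b, Krt18 and Pim2 higher in the cells with Fgf5, and the 2 sides overlap in each.

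Among widely detected genes with the same direction in both runs, the highest ratio belonged to Pim2, a serine/threonine kinase that promotes survival and growth. Pim2 had a lowest value of 0, a median of 257.3 and a highest of 2177 FPKM with Fgf5, against 1.08, 21.003 and 281.3 without. The means were 447 and 39.6 FPKM, a log2 ratio of 3.46, with 4.13 and 3.19 in the runs and 3.43 without the 4 cells. It was at 1 FPKM or more in 38 cells on each side, so the sides differed in level more than in detection. Female serum ES cells had a median of 43.7 FPKM and male Epi cells of 8.75, both below the cells with Fgf5. Slc16a3, a lactate and pyruvate exporter, was 8th among these genes, with medians of 29.9 and 9.12 FPKM and a log2 ratio of 2.15 (1.97 without the 4 cells).

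Epithelial genes were higher on the Fgf5 side, in part through 1 cell. Of 12 measured genes 5 were 2-fold higher (3 without the 4 cells) and none lower, with a median log2 ratio of 0.87 (0.46 without). In the lower run 3 of 12 were 2-fold higher, with a median of 0.53, and in the higher run 7 of 13, with a median of 1.39. Cldn7 and Cldn6, tight-junction claudins, had medians of 88.6 and 90.6 FPKM with Fgf5, and 15.2 and 13.1 without. Krt18, a simple-epithelium keratin, had a log2 ratio of 2.30 that became 1.40 without the 4 cells, and its partner Krt8 went from 2.77 to 1.00. Krt19, another keratin, went from 3.41 to 0.19. Another 3 genes near the top by mean, Nrep (3.22 to 0.05), Arhgap27 (2.204 to 0.10) and Tagln, an actin-binding protein (2.63 to 1.597), rested on the same cells in full or in part. The adhesion molecule Epcam was at 214 and 186.1 FPKM, and Cdh1 (E-cadherin) was at 30.3 and 16.7.

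Primitive streak genes were low in most of the cells. Only 7 of the 13 reached a mean of 1 FPKM over both sides, 5 without the 4 cells, and a gene that passes through the side where it is high has to differ, so their count is no support. Fgf8 was at 1 FPKM or more in 14 of 40 cells with Fgf5 and 5 of 38 without, with means of 14.3 and 1.30 FPKM (9.59 with Fgf5 once the 4 cells were left out). Wnt8a, a Wnt ligand of the posterior epiblast, was at 1 FPKM or more in 24 and 9 cells, with means of 16.7 and 1.68 FPKM and log2 ratios of 2.31 and 3.03 in the runs. T (Brachyury), the defining streak gene, was at means of 2.04 and 2.03 FPKM. Lhx1, Eomes and Mixl1 had medians of at most 0.155 FPKM on either side, and the mean of Lhx1 went from 4.69 to 0.429 FPKM without the 4 cells. The summed level of the 13 genes ranged from 0 to 592 FPKM with a median of 10.1, against a median of 1418 in male Epi cells.

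Signalling genes were mixed. Of 16 genes of FGF and ERK signalling other than Fgf5, 4 were 2-fold higher (Fgf8, Fgf15, Dusp6 and Egr1) and none lower, with a median of −0.06 (3 without the 4 cells). The runs differed in sign: in the lower run 15 of 16 genes had a higher mean with Fgf5, with a median of 0.43, and in the higher run 7 of 16, with a median of −0.25. Dusp6, an ERK phosphatase induced by ERK, had means of 47.4 and 22.3 FPKM, and the receptor Fgfr2 was at 6.57 and 12.9. Of 13 Nodal and Activin genes, 1 was 2-fold higher, also without the 4 cells, and 1 lower, with a median of −0.02 (0.05 and 0.04 in the runs). The lower one was Lefty2, a secreted Nodal inhibitor, with a log2 ratio of −1.01 (−0.93 without the 4 cells), and Nodal was at 80.6 and 69.1 FPKM. Of 10 LIF and STAT3 genes, Klf4 and the feedback inhibitor Socs3 (4.68 and 11.3 FPKM) were 2-fold lower, with a list median of −0.35 (−0.17 and −0.43 in the runs). None of 16 glycolysis genes was 2-fold apart (median 0.05, and 0.31 and −0.02 in the runs). Of 13 measured germline genes, 2 were 2-fold higher, Mael (16.05 and 5.02 FPKM) and Taf7l (6.52 and 1.77), and none lower. In the lower run 4 of the 13 were 2-fold higher, with a median of 0.46, and in the higher run 1 was higher and 2 lower, with a median of −0.04.

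Genes with the lowest ratios included 2 X-linked homeobox genes of the placenta and germline, Rhox6 and Rhox9. Rhox6 was at 1 FPKM or more in 11 of 40 cells with Fgf5 and 20 of 38 without, with highest values of 333 and 1358 FPKM, means of 15.0 and 100 and a log2 ratio of −2.67. For Rhox9 the ratio was −3.69 in the lower run and −0.28 in the higher run. The 2 genes are close paralogs and reads may be split between them. Bmp4, the ligand of germ cell induction, had medians of 0.120 and 1.28 FPKM and a mean of 37.6 FPKM without Fgf5 that rested on few high cells, up to 352.1. Mreg had medians of 2.61 and 19.5 FPKM, and Krt42 was at 1 FPKM or more in 15 and 29 cells. Tfap2c, a factor of germ cells, trophoblast and naive cells, had medians of 0.121 and 19.8 FPKM.

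**Figure D3:**
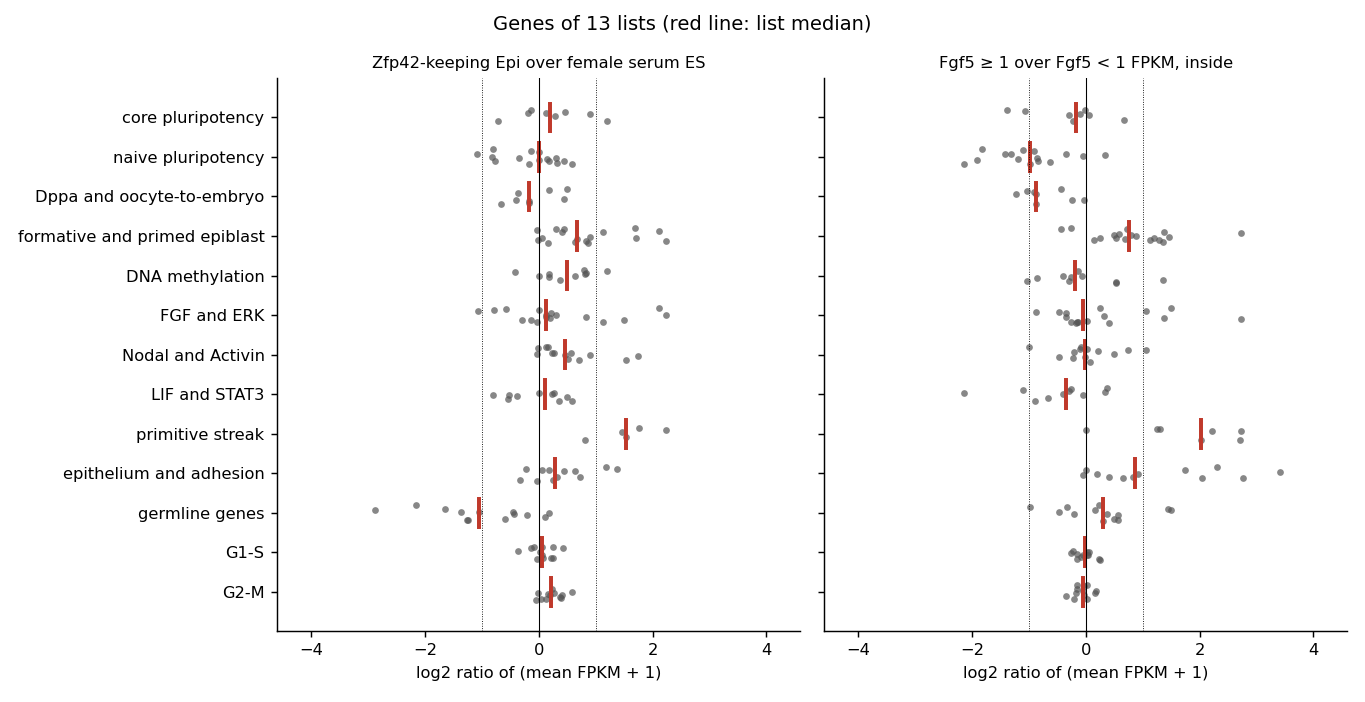
Log2 ratios of (mean FPKM + 1) for the measured genes of 13 lists, without Zfp42 and Fgf5, for all Zfp42-keeping cells over female serum ES cells (left) and for cells with over cells without Fgf5 (right); red lines are list medians, dotted lines 2-fold. The naive list centres on 0.00 at the left and on −0.99 at the right, and the germline list on −1.05 at the left and on 0.30 at the right.

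The same split was made in the serum ES cells, where few cells had Fgf5 (9 of 68 female and 6 of 52 male cells). In female serum 6.18% of genes were 2-fold higher and 8.48% lower with Fgf5, 14.7% in all, and in male serum 3.82% and 12%, 15.8% in all. Of the 15 naive genes 4 were 2-fold lower in female serum, with a median log2 ratio of −0.45, and 1 in male serum, with a median of 0.11. Of 15 formative genes 4 were 2-fold higher in female serum (median 0.42) and 1 in male serum (median 0.12). Otx2 had a log2 ratio of 1.88 in female and 0.76 in male serum cells, beside 1.28 in the Zfp42-keeping cells. Dppa5a was at 0.04 and −0.52, beside −0.87, and Pim2 at 0.43 and −0.49, beside 3.46. The difference between these splits was not tested.

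Taken cell by cell, the naive and formative lists opposed each other. A cell's score was the mean log2(FPKM + 1) over a list's genes other than Zfp42 and Fgf5. The naive score was 2.29 ± 1.24 (SD over 40 cells) with Fgf5 and 3.61 ± 0.933 (38 cells) without, against 3.02 in female serum, 5.23 in female 2i and 0.389 in male Epi cells. The formative score was 3.04 ± 0.550 and 2.30 ± 0.660, against 1.98 in female serum and 3.14 in male Epi cells. The cells with Fgf5 thus had a mean formative score near that of male Epi cells and a naive score well above theirs. Across the 78 cells the 2 scores had a Spearman correlation of −0.66 (−0.48 and −0.73 in the runs), against 0.00 in female and −0.36 in male serum ES cells. From the lowest to the highest Zfp42 range (below 10, 10 to 100, 100 FPKM or more), the mean naive score was 1.21, 2.72 and 4.24, and the formative score 3.25, 2.80 and 2.15.

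The genes whose pattern over the 78 cells was most like or most opposed to those of Fgf5 and Zfp42 were found by Spearman correlation. Over 9981 widely detected genes, the lowest correlations with Fgf5 were those of Dppa5a (−0.72), Ooep (−0.67), Pigp, a gene of GPI anchor synthesis (−0.65), and Cenpm, a centromere protein (−0.65). The highest were those of Plekha1, a phosphoinositide-binding protein (0.67), Snrpn, a paternally expressed imprinted gene (0.61), Pim2 (0.61), Pou3f1 (0.61) and Igf2bp3, an RNA-binding protein (0.61). Plekha1 had medians of 48.6 and 15.8 FPKM with and without Fgf5, and Snrpn of 287 and 116.7. With Zfp42 the highest were Mybl2, a cell cycle transcription factor (0.82), Sod2, a mitochondrial superoxide dismutase (0.77), Mylpf (0.77), Tet2, a 5-methylcytosine oxidase (0.77), and Tcl1 (0.77), and the lowest was Reep5 (−0.72). The median over all genes was 0.01 with Fgf5 and 0.00 with Zfp42. These correlations describe cells of 1 culture.

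By overall profile all but 4 of the Zfp42-keeping cells were nearer to serum ES than to male Epi cells. Each cell was correlated, over 15283 genes without Zfp42 and Fgf5, with the mean profile of serum ES cells (both cultures weighted equally) and with that of male Epi cells, to which serum and male Epi cells themselves contribute. The male Epi correlation minus the serum correlation ranged from −0.119 to 0.0509 with a median of −0.0801, and 4 of 78 cells (5.13%, interval 1.41% to 12.6%) were closer to male Epi. The median was −0.0670 with Fgf5 and −0.0868 without, where no cell of 38 was closer to male Epi. Female serum cells had a median of −0.103, male serum −0.0980, male Epi 0.106 and the 7-passage female line, from a separately normalised table, 0.0391. Female 2i ES cells, which are in neither profile, had a median of −0.0874, so a negative value is not particular to serum culture. By Zfp42 range the medians were −0.0107, −0.0744 and −0.0876 from low to high, and the 4 cells all lay below 10 FPKM.

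**Figure D4:**
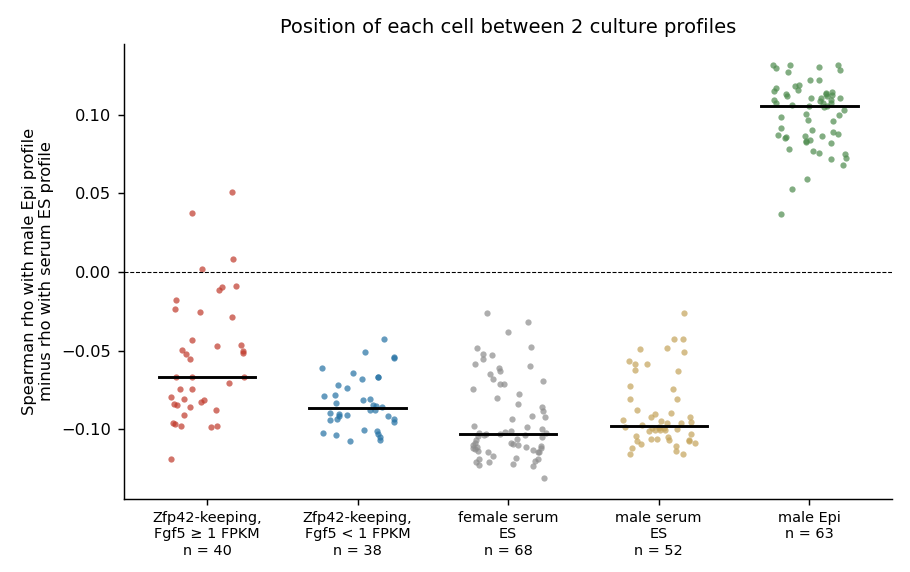
Spearman correlation of each cell with the mean male Epi profile minus that with the mean serum ES profile, by group; black lines are medians, and points above the dashed line are closer to male Epi. Of the 40 cells with Fgf5, 4 are above the line, and the group reaches from the serum range up to 0.0509, while the 38 cells without Fgf5 stay below it.

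Set against the female serum ES cells, the naive genes of the Zfp42-keeping cells, which a naive gene chose, were higher or lower in about equal number. Of 13896 genes 1329 (9.56%) were 2-fold higher and 433 (3.12%) lower, with a median log2 ratio of 0.20. With upper-quartile scaling the share of higher among the 2-fold genes was 65.3% in place of 75.4%. Without short and ribosomal RNA genes 7.52% of genes were 2-fold apart, in place of 12.7%. Against male serum ES cells 9.35% were 2-fold higher and 2.92% lower, 12.3% in all. Of 15 naive genes none was 2-fold higher and 1 was lower (Fbxo15, 42.7 against 91.7 FPKM), with a median of 0.00 over 8 genes with a higher and 7 with a lower mean. Against male serum cells 1 was 2-fold higher (Tcl1, 71.9 against 19.5 FPKM) and 1 lower (Fbxo15, at 92.3 FPKM in male serum), with a median of −0.04. Pou5f1 was higher, with a median of 1098 FPKM against 488 in female and 620 in male serum cells, and means of 1131 against 493 and 645. Its mean in the lower run was 845 and in the higher run 1340.0 FPKM.

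Of 17 formative genes other than Fgf5, 5 were 2-fold higher than in female serum cells and none lower, with a median of 0.67. Against male serum cells 3 of 18 were 2-fold higher and none lower, with a median of 0.36. Against both serum cultures 5.49% of 13504 genes were 2-fold higher and 0.992% lower, and Fgf15, Lef1 and Fgf8 were among the higher. Fgf15 averaged 19.3 FPKM against 3.72 in female and 2.67 in male serum cells, and Lef1 51.4 against 15.1 and 17.97. Fgf8 averaged 7.99 FPKM (5.33 without the 4 cells) against 0.915 and 0.319. Otx2 and Pou3f1 were not apart, at 29.7 against 22.2 FPKM and 3.43 against 3.24.

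The secreted Nodal inhibitors were higher than in both serum cultures. Lefty1 had a lowest value of 0.332, a median of 107 and a highest of 1003 FPKM in the Zfp42-keeping cells, and 0, 11.8 and 991 in female serum cells, with means of 208 against 71.4 (70.1 in male serum). Lefty2 had medians of 79.1 and 15.4 FPKM and means of 113.96 against 33.4 (43.5 in male serum). Lefty genes are known targets of Nodal and Activin signalling. The other Nodal genes were closer, with Nodal at 75.01 against 53.9 FPKM and Smad7 at 8.55 against 5.70. Dusp4, an ERK phosphatase, averaged 9.88 against 2.84 and 2.38 FPKM. Wnt8a was at 9.37 against 2.60 and 2.62 and Wnt3 at 5.26 (3.53 without the 4 cells) against 0.845 and 0.476. The keratins Krt8 and Krt19 and the collagen Col1a2 were also 2-fold higher by mean, but without the 4 cells they averaged 4.24, 2.12 and 0.286 FPKM, below the female serum means of 5.18, 5.66 and 0.740.

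Many germline genes were lower than in female serum cells. Of 13 measured, 7 were 2-fold lower than in female serum cells and none higher, with a median of −1.05. Against male serum cells 2 of 13 were 2-fold lower and 1, Taf7l, higher, with a median of −0.41. Dazl and Fkbp6 were 2-fold below both serum cultures. Dazl, an RNA-binding protein of germ cells, averaged 1.87 FPKM against 11.9 and 11.3, and Fkbp6, a meiosis gene, 3.13 against 29.3 and 22.1. Both were still above male Epi cells, where they were listed at 0 in every cell. Sycp3, a synaptonemal complex gene, was alike at 18.7 and 17.3 FPKM.

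Set against the male Epi cells, 2323 of 14397 genes (16.1%) were 2-fold higher and 1554 (10.8%) lower, 26.9% in all, with a median of 0.01. Zfp42 chose the cells in this contrast, and the naive genes belong to what chose them, so the values are only described. Of 14 naive genes 13 were 2-fold higher and 1, Tbx3, lower, with a median of 3.64, and all 8 Dppa and oocyte-to-embryo genes and all 12 measured germline genes were 2-fold higher. Germline genes were near absent in male Epi cells, whose germline score had a median of 0 and a highest value of 0.318. Such genes pass the filter only through the Zfp42-keeping cells and then have to be higher, so their count is no support. Utf1, a chromatin factor of pluripotent cells, had a median of 669 FPKM against 0.158. Of 13 streak genes 11 were 2-fold lower and none higher, led by Mixl1 (1.64 against 576 FPKM), and T was at 2.04 against 153.8. Streak genes near 0 in the Zfp42-keeping cells pass through the male Epi side and have to be lower, so this count is no support either. The formative list was split, with 5 of 18 genes 2-fold higher, 3 lower and a median of 0.05. Otx2 was lower (29.7 against 172.7 FPKM) and Dnmt3a higher (245.98 against 48.4).

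The 7-passage female Epi line comes from a table normalised separately. Of 14389 genes 14% were 2-fold higher and 13% lower, 27% in all, with a median of −0.08. In that line 3 of 41 cells had Zfp42 at 1 FPKM or more, Dppa5a averaged 0.166 FPKM, and 12 of 14 naive and all 8 Dppa genes were 2-fold higher in the Zfp42-keeping cells. Of the 13 epithelial genes 8 were 2-fold lower and 1 higher, with Krt18 at 25.1 against 620 FPKM. The line is female, as are the Zfp42-keeping cells, and passage, line and table cannot be told apart.

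Cells with both genes were also present in the embryo, in tables of their own, so the values are only set side by side. At E4.5 all 23 epiblast cells had Zfp42 at 1 FPKM or more, with a median of 33.3 FPKM, and none had Fgf5. At E5.5 Zfp42 was at 1 FPKM or more in 19 of 20 female and 41 of 63 male cells, with medians of 7.34 and 2.89 FPKM, and Fgf5 in 20 of 20 and 62 of 63, with medians of 67.5 and 92.1 FPKM. These female and male E5.5 cells had mean primitive endoderm scores of 4.79 and 3.26, against 0.973 in the Zfp42-keeping cells. Their mean trophoblast scores were 2.88 and 1.53, against 0.997. Whether RNA of other embryo tissues enters the E5.5 values was not tested. Pim2 had a median of 1.68 FPKM at E4.5, and of 727 and 849 in female and male E5.5 cells. Dnmt3b went the same way, with medians of 22.4, 487 and 805 FPKM. Dppa5a had medians of 1740 FPKM at E4.5 and of 86.4 and 87.5 at E5.5, where its highest value was 192.2. The cultured Zfp42-keeping cells exceeded 192.2 FPKM in all but the first and second of the 4 cells set apart above.

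X-linked output was recorded because the cells are female. It was the mean relative level of X-linked genes over that of 4888 autosomal genes, taken over genes at 10 FPKM or more in each of 4 groups, and scaled to a median of 1 in male serum cells. In the Zfp42-keeping cells it ranged from 0.807 to 1.80 with a median of 1.28, against a median of 1.58 in female serum and 1.00 in male Epi cells. It was at or below the highest male serum cell (1.18) in 25 of 78 cells (32.1%, interval 21.9% to 43.6%), against 5 of 68 female serum cells (7.35%). The share was 4 of 33 in the lower run and 21 of 45 in the higher run, and alike on both sides of the Fgf5 split, 13 of 40 and 12 of 38. Xist, the RNA that coats the inactive X, was at 1 FPKM or more in 52 of 78 cells, 28 of 33 and 24 of 45 by run, and 30 of 40 and 22 of 38 by Fgf5. In female serum it was at 1 FPKM or more in 25 of 68 cells. Xist overlaps its antisense gene Tsix, and whether the counting used strand is not given in the sources used here. X output and Xist had a Spearman correlation of 0.37 (0.01 and 0.32 in the runs). The cell with the highest Xist, 238.9 FPKM, had an X output of 0.996, and the next, at 55.9 FPKM, 1.37. Both were unusual cells, with low correlations with the serum ES profile (0.58 and 0.59). The first also had the highest FPKM sum, 1.76e+06. In the 8 cells with Xist listed at 0, X output ranged from 0.836 to 1.35. Whether Xist lowered X output within a cell was not tested. X output was higher in cells with more genes detected (0.45), and the part of detection and of the runs in these shares was not tested.

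**Figure D5:**
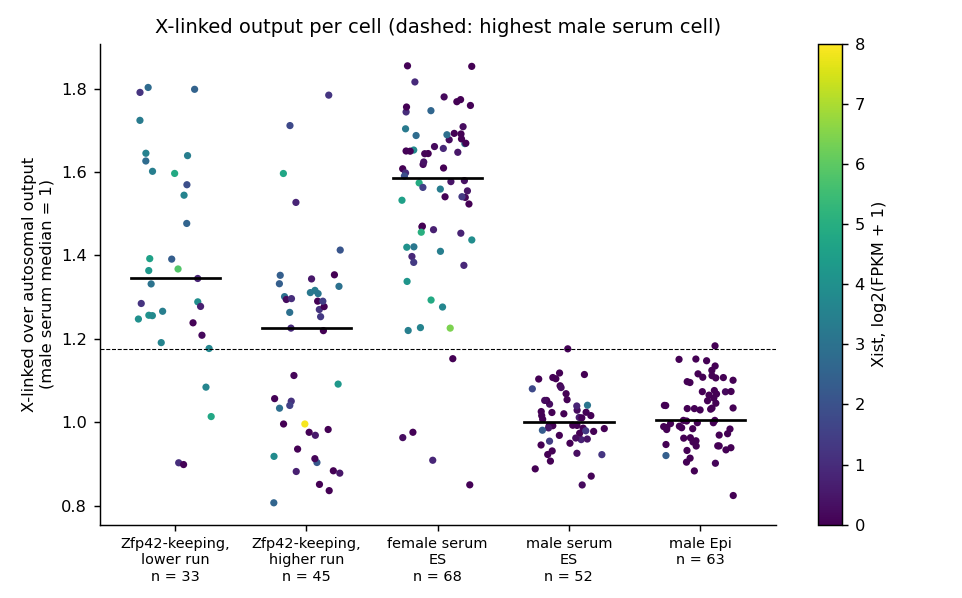
X-linked over autosomal output in each cell (male serum median set to 1) for the Zfp42-keeping cells of both runs, female and male serum ES and male Epi cells, coloured by Xist as log2(FPKM + 1); black lines are medians and the dashed line is the highest male serum cell. In the higher run 21 of 45 cells lie at or below that line and in the lower run 4 of 33.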

How the data were processed

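The deposited values are FPKM per gene and cell, made by the authors. The submitters' processing notes name STAR 2.4.1, Cufflinks, Cuffnorm 2.2.1 and mm10, without roles. Read depth is unknown, and whether counting used strand is not given in the sources used here. Of the 4 deposited tables, those of embryo cells and of the 7-passage line were normalised apart from the main one. In 356 values the exponent's sign was garbled and was read as negative. Gene IDs were matched to GENCODE vM21 (42548 of 43628), promoters to RefSeq. With Python 3.11.15, pandas 2.3.3 and scipy 1.17.1, means over cells were compared as the log2 ratio of (mean FPKM + 1) for genes averaging 1 FPKM or more over both arms. No test was run, since each arm was taken as 1 culture. The ratio step was checked on simulated cells, both arms drawn from 1 culture, with changes planted only in genes at a mean of 10 FPKM or more. That check does not cover changes in lower genes or differences between cultures. Named genes were those of 24 lists, the 8 highest and 8 lowest ratios among genes with a mean of 10 FPKM in the higher arm and at 1 FPKM or more in 50% of its cells, and the 5 highest and 5 lowest correlations. For the Fgf5 split the direction also had to be the same in both runs. The members, lists and rules were chosen with earlier results of these data known. Alternatives changed the pseudocount, filter, scaling, thresholds, runs and cells.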

Additional observations from a re-analysis of the deposited data

How the results depend on the processing

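No paired analysis was possible because no result comes from a test and replicate numbers only name cells. Of the 1762 genes 2-fold apart from female serum ES cells, 850 were left with a filter at a mean of 5 FPKM, 880 with means of log2 values, 947 without short and ribosomal RNA genes and 875 when both serum cultures were required (the last 2 chosen after seeing the data). With the filter at 5 FPKM the counts were 2098 of 3877 against male Epi cells, 2202 of 3882 against the 7-passage line and 783 of 1630 for the Fgf5 split, as fewer genes are tested. The Fgf5 split gave 449 genes with means of log2 values and 785 without short and ribosomal RNA genes. At an Fgf5 threshold of 0.1 FPKM, 71.8% of cells counted as having Fgf5, and at Zfp42 of 10 FPKM or more, 0% of cells were closer to male Epi. In the lower run alone the share of higher among 2-fold genes was 58.3% against female serum ES cells, 47.1% against male Epi (59.9% in all cells) and 40.4% against the 7-passage line (51.8%). Against serum, direction turned for Gm3880 (1.00) and Tpi1 (−0.26) with male serum cells, Notum (−0.13) in the lower run, Krt8 (−0.13) and Krt19 (−0.9996) in the lower run and with Zfp42 at 10 FPKM or more (−0.33 and −1.21), and Col1a2 with means of log2 values (−0.18, and −0.025 against male Epi). In the Fgf5 split it turned for Nrep (−0.0041) and Arhgap27 (−0.24) with Zfp42 at 10 FPKM or more, and for Bmp4 (0.13) and Tbx3 (0.16) at a split of 0.1 FPKM. Apart from those stated for the 4 cells, the causes were not tested. Without the 4 cells 54 named genes of the Fgf5 split could be compared and 41 stayed 2-fold on the same side. Values near 0 may be missed detection, and depth is unknown.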

Other observations

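Beyond the lists of the report, 3 gene groups stood out among the genes 2-fold apart from serum. They were assembled after the values were seen and have no support of their own. Sterol and fatty acid synthesis genes were higher in the Zfp42-keeping cells than in female serum ES cells: 11 of 20 were 2-fold higher and none lower, with a median log2 ratio of 1.10. Against male serum ES cells 2 were 2-fold higher, Srebf1 and Scd2, with a median of 0.35. Srebf1, the transcription factor of lipid synthesis, averaged 64.3 FPKM against 11.9 in female and 23.8 in male serum cells. Scd2, a fatty acid desaturase, averaged 53.3 against 7.38 and 25.9 FPKM. Male Epi cells were higher still, at 110 and 149.4 FPKM, and the Fgf5 split left the list at a median of 0.21 with none of 20 genes 2-fold apart.

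Genes of serum response and the actin cytoskeleton were lower: 10 of 18 were 2-fold lower than in female serum cells and none higher, with a median of −1.04. Against male serum cells 6 were 2-fold lower and 1, Tpm2, higher, with a median of −0.52. Ccn1, Acta2, S100a6, Ier3 and Sgk1 were 2-fold below both serum cultures. Acta2, smooth muscle actin, averaged 0.599 FPKM against 29.3 and 20.98, and Ccn1, a matrix protein and serum-induced gene, 7.82 (5.64 without the 4 cells) against 67.2 and 40.8. Meiosis genes were lower as well, 9 of 15 by 2-fold against female serum cells with a median of −1.06. Against male serum cells 6 of 15 were 2-fold lower and 1, Taf7l, higher, with a median of −0.49. Of the list, Stra8, Rec114, Hormad2, Tex11, Dazl and Fkbp6 were 2-fold below both serum cultures. Stra8, the gate-keeper of meiotic entry, averaged 14.5 against 52.6 and 115.2 FPKM. The list shares Dazl, Fkbp6 and others with the germline list. The Zfp42-keeping cells and the female serum ES cells share the line, and their medium and culture differ together and cannot be told apart.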
